A study of Saccharomyces cerevisiae with 47 samples.

Results

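General regulatory factors are abundant DNA-binding proteins of budding yeast that recognise defined sequence motifs in many promoters and are known for helping to keep nucleosomes off them. The genes that encode 6 of these factors are described here: REB1, ABF1, RAP1, CBF1, MCM1 and TBF1. They were chosen by name, out of 6002 nuclear protein-coding genes in the R64 gene table. Each was searched for motif sites of Reb1 and of Abf1, the factors that the study pulled down. A site was given to a gene when its centre lay inside the gene or at most 1000 bp upstream of its start codon.

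Reb1 is a Myb-type DNA-binding protein that also takes part in transcription termination, and Abf1 was first known from replication origins and silencers. Rap1 serves ribosomal protein genes and telomeres, and Cbf1 serves methionine genes and the centromere. Mcm1 is a MADS-box factor of cell-cycle and mating genes, and Tbf1 binds subtelomeric repeats and many snoRNA promoters. A factor that binds in front of its own gene can take part in autoregulation, and autoregulation of REB1 has been described in living cells. The site lists record positions on DNA and not transcription, so regulation itself was not measured.

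The chromatin was reconstituted in vitro from plasmid library DNA and recombinant S. cerevisiae histone octamers, so no cells or endogenous proteins were present. Of the 47 samples, 24 were Strep-Tactin pulldowns and 23 were inputs, with at most 2 replicates per group, and the labels do not say whether replicates came from separate assemblies. Each factor, carrying a C-terminal Strep-tag II, was added at 50 nM, without remodeler or together with Chd1, ISW2 or INO80 (24 nM each) or with RSC (12 nM). Control reactions had neither factor nor remodeler, and all groups were crosslinked with 0.05% formaldehyde. The deposited values were 1 site list per factor for the series as a whole, with 942 distinct Reb1 sites and 1365 distinct Abf1 sites on 16 chromosomes. The lists name no sample, so every value below is a single value with no replicate error, and neither depth nor a remodeler effect can be read from it. According to the series description the assembled DNA came from chromosomes V through IX, and 0 of the 6 genes lie there. The sources used here do not say whether the DNA of these 6 genes was in the reactions, although both lists hold sites on all 6 of their chromosomes.

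REB1 and ABF1 were the only genes of the 6 with a site, and they held 10 sites in all. REB1 had 2 Reb1 sites and 4 Abf1 sites. ABF1 had 4 Abf1 sites and 0 Reb1 sites. RAP1, CBF1, MCM1 and TBF1 had 0 sites of either factor. A Reb1 site was thus present at 1 of 6 genes (16.7%, exact 95% interval 0.421 to 64.1), against 1144 of all 6002 genes (19.1%). An Abf1 site was present at 2 of 6 genes (33.3%, 4.33 to 77.7), against 1495 of 6002 (24.9%). Neither factor had a site at 4 of the 6 genes, and the same held for 3728 of 6002 genes (62.1%). With 6 genes these shares were near those of all genes, and the intervals, which cover counting error only, span both higher and lower shares.

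**Figure D1:**
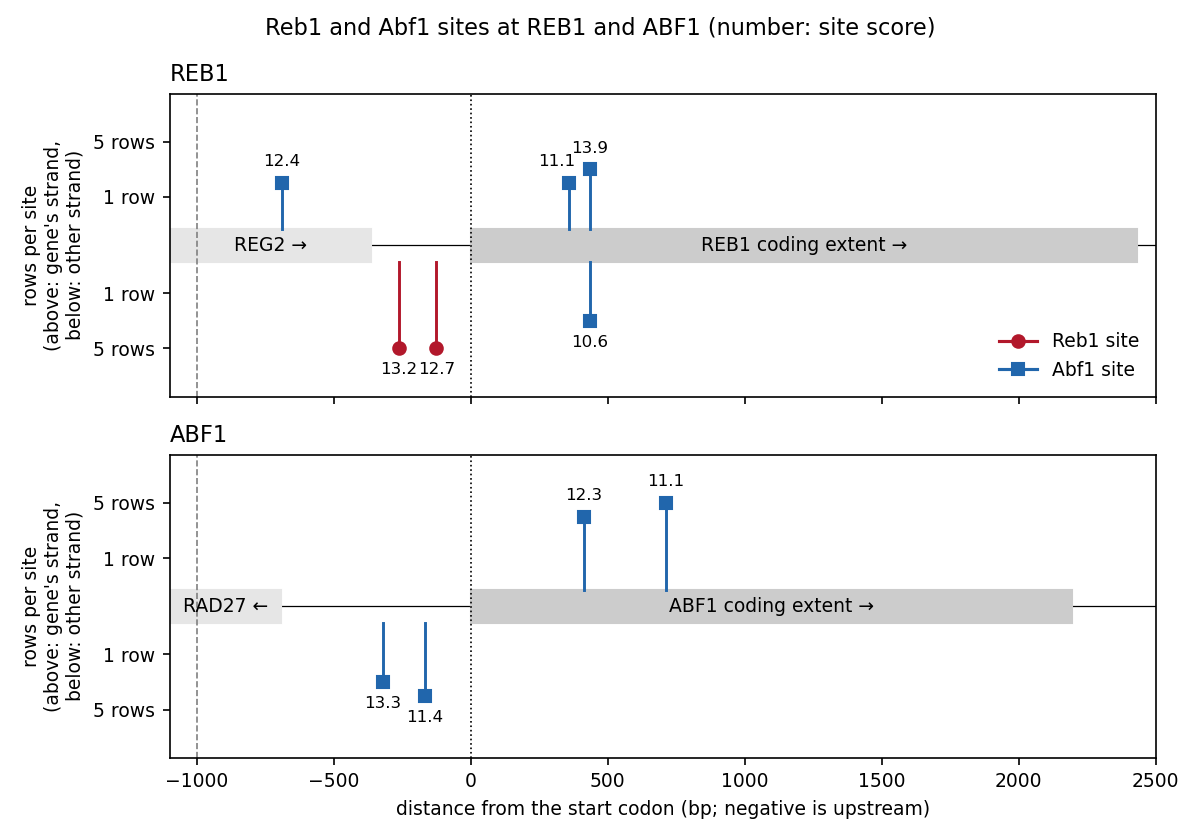
Reb1 sites (red circles) and Abf1 sites (blue squares) at REB1 and ABF1, by distance from the start codon in bp, with upstream negative. Marker height is the number of identical rows per site (above the line for the gene's own strand, below it for the other strand), the number beside a marker is its score, the dashed line marks 1000 bp, and both promoters hold a pair of sites on the strand opposite to the gene.

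The pair of Reb1 sites at REB1 lay in its promoter. REB1 (YBR049C) lies on the reverse strand of chromosome II, from 334386 to 336818 in R64, and is preceded by REG2, a regulator of the glucose-repression phosphatase, which runs in the same direction. The intergenic DNA between them is 364 bp long. The nearer site spanned positions 336940 to 336948, with its centre 126 bp from the REB1 start codon. The farther site spanned 337078 to 337086, with its centre 264 bp from the start codon and 101 bp beyond the last base of REG2. Both sites were therefore intergenic and between tandem genes, and their centres were 138 bp apart.

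Both Reb1 sites were on the forward strand, opposite to the direction of REB1. The nearer site had a score of 12.7, with 350 of the 942 Reb1 sites scoring higher. The farther site scored 13.2, with 187 sites higher. The authors deposited the score without a definition, so it is used here only to place a site within its own list. Among the 665 Reb1 sites that lay upstream of a gene and inside none, the median score was 12.6 (interquartile range 11.9 to 13.2), and 52.8% scored lower than the nearer REB1 site and 71.4% lower than the farther one.

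Each Reb1 site at REB1 was listed in 5 identical rows, the most that any site had. Of the 942 Reb1 sites, 215 (22.8%) were listed 5 times and 171 (18.2%) once. Each factor was used in 5 kinds of reaction, but the sources used here do not say what a repeated row stands for. At least 2 upstream Reb1 sites, each listed in 5 rows, were found at 37 of 6002 genes (0.616%), REB1 among them by construction. These were 37 of the 103 genes with at least 2 upstream Reb1 sites, so 5 rows at each site was not rare among such genes.

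A pair of upstream Reb1 sites was uncommon in the list as a whole. At least 2 Reb1 sites within 1000 bp upstream occurred at 103 of 6002 genes (1.72%), and within 500 bp at 47 genes (0.783%). REB1 was in both counts by construction, since the cut of 2 is its own number of upstream Reb1 sites. Its nearer site was also close to the start codon: among the 979 genes with an upstream Reb1 site, the nearest site was closer at 86 genes (8.78%), and the median was 244 bp (interquartile range 159 to 481). Genes that share a divergent promoter share sites, so such counts are not of independent promoters.

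The spacing of the REB1 pair fell between the spacings that most such genes had. Among the 83 genes with exactly 2 upstream Reb1 sites, 45 had sites less than 100 bp apart and 35 had sites over 200 bp apart. Only 3 genes had a spacing of 100 to 200 bp, namely REB1, BUR6 and TDH2, a glyceraldehyde-3-phosphate dehydrogenase gene whose sites were 143 bp apart and began 522 bp upstream. These classes and the name TDH2 were chosen after the values were seen. The median spacing was 75 bp (interquartile range 25 to 424). In 21 of the 83 genes (25.3%) both sites pointed against the gene, as at REB1, in 20 (24.1%) both pointed with it, and in 42 (50.6%) the strands differed.

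The genes whose pair of Reb1 sites was most like that of REB1 were named by the sum of the absolute differences in nearest distance and in spacing, over the 83 genes. YHR022C-A came nearest, with sites 105 and 180 bp upstream, 75 bp apart, and a summed difference of 84 bp. BUR6, a subunit gene of the transcription regulator NC2, had sites 196 and 353 bp upstream, 157 bp apart, and a summed difference of 89 bp. MIN4 followed with sites 190 and 277 bp upstream and a summed difference of 115 bp. The sites of YHR022C-A and BUR6 pointed against the gene, as at REB1, and those of MIN4 were on different strands. YHR022C-A also matched REB1 in having both sites listed in 5 rows, which held for 27 of the 83 genes. The sites of BUR6 were listed 3 and 4 times and those of MIN4 3 times each. The pairs of YHR022C-A and MIN4 also lay upstream of other genes among the 83.

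**Figure D2:**
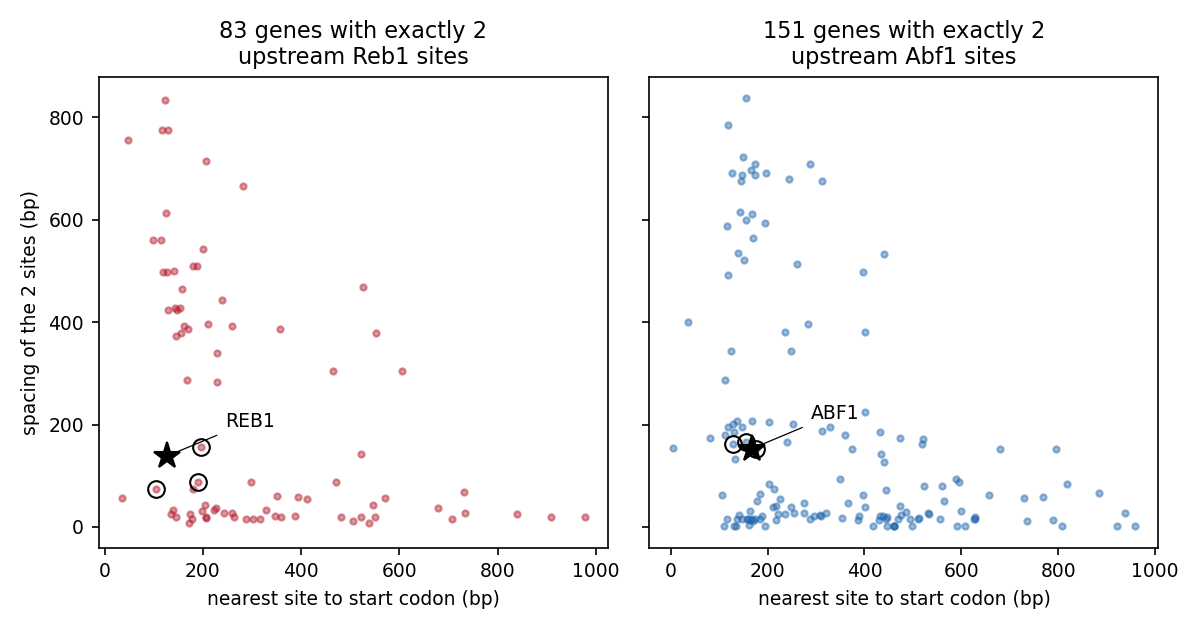
Distance of the nearest site to the start codon (x axis, bp) against the spacing of the pair (y axis, bp) for the 83 genes with exactly 2 upstream Reb1 sites and the 151 genes with exactly 2 upstream Abf1 sites. Stars mark REB1 (126 and 138 bp) and ABF1 (168 and 153 bp) and open circles the 3 genes most like each: REB1 stands in a sparsely filled range of spacings and ABF1 among several genes of similar arrangement.

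ABF1 had a pair of Abf1 sites in its promoter as well. ABF1 (YKL112W) lies on the forward strand of chromosome XI, from 226570 to 228765. It shares a divergent promoter of 694 bp with RAD27, the flap endonuclease gene of lagging-strand DNA synthesis. The nearer site spanned 226395 to 226409, with its centre 168 bp from the ABF1 start codon and 527 bp from that of RAD27. The farther site spanned 226242 to 226256, 321 bp from the ABF1 start codon and 374 bp from that of RAD27. Both sites were thus nearer to ABF1 than to RAD27, although each also counts as upstream of RAD27 in a window of 1000 bp.

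The pair of promoter sites at ABF1 differed in score. The farther site scored 13.3, with 274 of 1365 Abf1 sites higher, and the nearer one scored 11.4, with 915 higher. Among the 672 Abf1 sites upstream of a gene and inside none, the median score was 12.6 (interquartile range 11.7 to 13.6), and 68.2% scored lower than the farther site but only 18.3% lower than the nearer one. The site closer to the start codon was thus the lower-scoring of the pair, and it was listed 4 times against 3 for the farther site. Both pointed against the direction of ABF1, as the Reb1 sites did at REB1.

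At least 2 upstream Abf1 sites were found at 183 of 6002 genes (3.05%) within 1000 bp and at 99 genes (1.65%) within 500 bp. ABF1 was in both counts by construction, since the cut of 2 is its own number of upstream Abf1 sites. Among the 1124 genes with an upstream Abf1 site, the nearest site was closer than that of ABF1 at 304 (27.0%), and the median was 286 bp (interquartile range 164 to 533). Of the 151 genes with exactly 2 upstream Abf1 sites, 24 had a spacing of 100 to 200 bp, 89 a smaller and 38 a larger one. In 35 of them (23.2%) both sites pointed against the gene, in 42 (27.8%) both pointed with it, and in 74 (49.0%) the strands differed. ABF1, with a spacing of 153 bp, was 1 of those 24 genes out of 151, where REB1 was 1 of 3 out of 83. Neighbouring genes can share a pair, and RAD27, which shares that of ABF1, is also among the 24. The 24 are thus genes and not distinct pairs of sites, and the difference between the factors was not tested.

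HYP2, which encodes the translation factor eIF5A, had the arrangement most like that of ABF1. Its Abf1 sites were 176 and 328 bp upstream and 152 bp apart, a summed difference of 9 bp. SWI3, a subunit gene of the SWI/SNF remodeler, had sites 156 and 321 bp upstream, with a summed difference of 24 bp. MRPL8, a mitochondrial ribosomal protein gene, had sites 128 and 290 bp upstream, with a summed difference of 49 bp. Of the 3 genes, MRPL8 also matched ABF1 in strand, with both sites pointing against the gene, while the sites of HYP2 and SWI3 were on different strands. The nearer site scored lower than the farther one at SWI3 (12.5 and 15.3) and MRPL8 (13.1 and 14.3), as at ABF1 (11.4 and 13.3), and higher at HYP2 (13.1 and 12.1). The pairs of HYP2, SWI3 and MRPL8 each also lay upstream of another gene with exactly 2 upstream Abf1 sites.

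Inside its coding extent ABF1 held another 2 Abf1 sites. One spanned 226975 to 226989, 412 bp past the first base of the start codon, scored 12.3 and was listed 4 times. The other spanned 227275 to 227289, 712 bp past it, scored 11.1 and was listed 5 times. Both were on the strand of the gene, opposite to the strand of the promoter pair. They were 300 bp apart, and 580 bp separated the nearer promoter site from the first site inside the gene.

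Score and row number ran differently over the 4 Abf1 sites of ABF1. The site with the lowest score, 11.1, was the only one listed in 5 rows, which 143 of 1365 Abf1 sites (10.5%) were. The site with the highest score, 13.3, was listed 3 times, the fewest of the 4. Over the whole Abf1 list the median score was 11.85 for sites listed in 1 row, 11.89 for those in 2 rows, and between 12.15 and 12.18 for those in 3, 4 or 5 rows.

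A gene with at least 4 Abf1 sites in the window was rare, with 32 of 6002 genes (0.533%), and both REB1 and ABF1 were among them. The cut of 4 is the number that each of them has, so both meet it by construction. With overlapping sites merged into 1, the count was 26 genes (0.433%), which still held ABF1 but no longer REB1. The arrangement of ABF1 itself was then set as a condition, which ABF1 meets by construction, and genes were not matched for length. At least 2 merged Abf1 sites upstream together with at least 2 inside were found at 5 of 6002 genes (0.0833%). Besides ABF1 these were YAT1, a carnitine acetyltransferase gene, ISC1, a sphingolipid phospholipase gene, KAP123, a nuclear import receptor gene, and IKI3, an Elongator subunit gene, all named after their counts were seen.

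REB1 also carried Abf1 sites, and these lay in coding DNA. Of its 4 Abf1 sites, 3 were inside REB1. One spanned 336454 to 336468, 357 bp past the first base of the start codon, scored 11.1 and was listed 2 times. The other pair spanned 336376 to 336390 and 336378 to 336392, on opposite strands with centres 2 bp apart. The member of that pair on the strand of REB1 scored 13.9 and the one on the other strand scored 10.6, and each was listed 3 times.

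The overlapping pair inside REB1 covers almost the same bases on both strands. The Abf1 list held 16 pairs of neighbouring sites with centres 2 bp apart, all 16 on opposite strands, and the Reb1 list held 0. Merged in this way, REB1 had 3 Abf1 sites, and at least 3 were found at 76 of 6002 genes (1.27%). REB1 meets that cut by construction. The score of 13.9 was the highest of the 10 sites at these genes relative to its own list, with 141 of 1365 sites higher. It was also high for coding DNA: of the 656 Abf1 sites inside protein-coding genes, 95.4% scored lower, and their median was 11.5 (interquartile range 11.0 to 12.3). The score of 10.6 of its partner equalled the lowest in the Abf1 list.

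The remaining Abf1 site at REB1 was 691 bp upstream, spanning 337502 to 337516, with a score of 12.4 and 2 rows. It lay inside REG2, so the REB1 promoter between the genes held Reb1 sites and no Abf1 site. The distance from this site to the farther Reb1 site was 427 bp, and from the nearer Reb1 site to the first Abf1 site inside REB1 it was 483 bp. No Reb1 and Abf1 site at REB1 were thus closer than 427 bp, so the sites of the factors lay in separate parts of the locus.

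**Figure D3:**
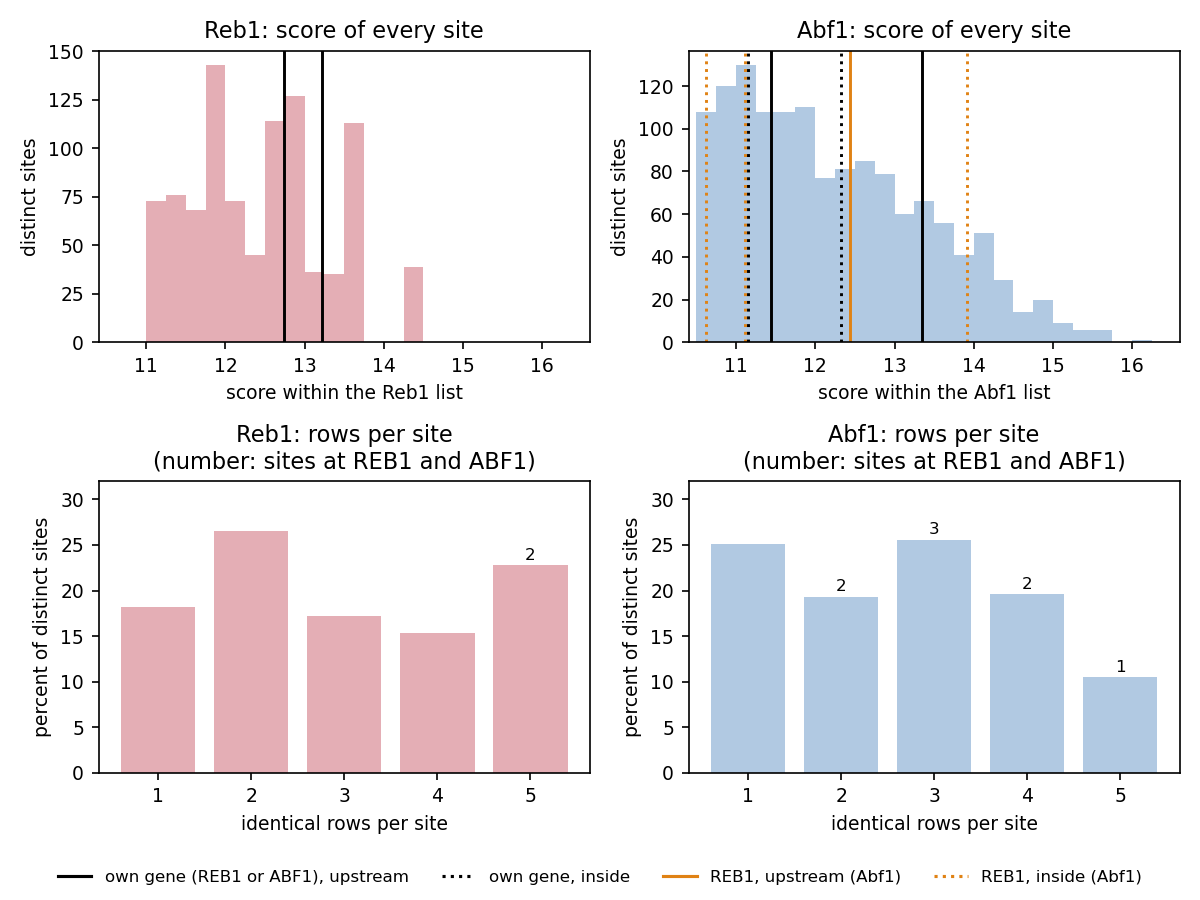
Scores of all distinct sites of each list (upper panels, number of sites per score class of 0.25) and share of sites by number of identical rows (lower panels, percent). Lines mark the sites at REB1 and ABF1, solid for upstream and dotted for inside the gene, and numbers above bars count those sites by rows: both Reb1 sites at REB1 stand above the list's median score and in the class of 5 rows, and the 8 Abf1 sites spread from the lowest score to 13.9.

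The Abf1 sites inside REB1 and ABF1 all lay in the early part of the coding extent. Those in REB1 were 14.7% to 17.9% of the way from the start codon to the end, and those in ABF1 18.8% and 32.4%. Over all protein-coding genes there were 657 pairs of an Abf1 site and a gene that holds it. Of these pairs, 197 (30.0%) lay at or before 32.4%, and the median position was 57.8%. The cut of 32.4% is the position of the deepest site in REB1 or ABF1, so their sites all fall within it by construction. An Abf1 site inside the gene was found at 520 of 6002 genes (8.66%), and at least 2 at 97 (1.62%). Such counts depend on length: among the 799 genes with a coding extent of at least 2000 and under 3000 bp, a range that includes REB1 (2433 bp), ABF1 (2196 bp) and RAP1 (2484 bp), 105 (13.1%) had an Abf1 site inside and 19 (2.38%) had at least 2. REB1 and ABF1 were in that last count, which ABF1 meets by construction, and RAP1 was not.

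Cross sites between the pair of factors ran in 1 direction in these lists. REB1 held Abf1 sites, as described, and ABF1 held no Reb1 site. The Reb1 site nearest to the ABF1 start codon was 6996 bp upstream, spanning 219570 to 219578, with a score of 11.2 and 1 row. It lay 357 bp upstream of VPH2, a vacuolar ATPase assembly gene. At 63.7% of the 6002 genes a Reb1 site was nearer than that. Sites of both factors in the window, as at REB1, were found at 365 of 6002 genes (6.08%). At least 2 upstream Reb1 sites together with an Abf1 site inside were found at 15 (0.250%). That combination is the one REB1 itself showed, so REB1 meets it by construction.

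**Figure D4:**
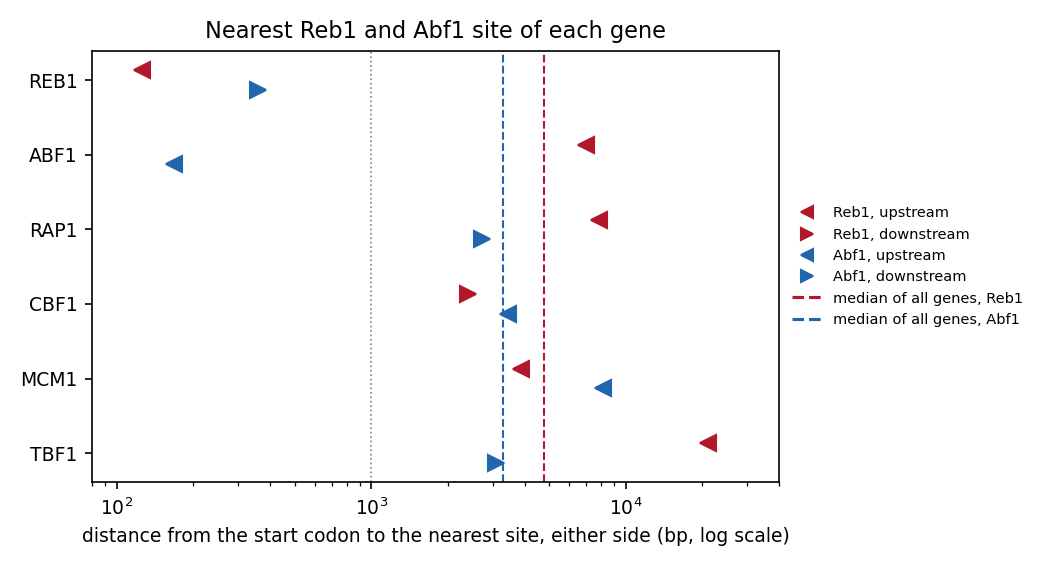
Distance from the start codon of each of the 6 genes to the nearest Reb1 and Abf1 site on either side (x axis, bp, log scale), with arrowheads pointing left for upstream and right for downstream sites. Dashed lines are the medians over all 6002 genes (4749 bp for Reb1 and 3276 bp for Abf1) and the dotted line marks 1000 bp: only REB1 and ABF1 have a site to the left of it.

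The other 4 genes had no site within 1000 bp upstream or inside, and their nearest sites belonged to other genes. The names of those other genes were chosen after the values were seen. Across all genes the median distance from the start codon to the nearest site on either side was 4749 bp for Reb1 (interquartile range 1618 to 9767) and 3276 bp for Abf1 (1052 to 7278).

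RAP1 (YNL216W, chromosome XIV, 241689 to 244172) follows PPN2 after 377 bp of intergenic DNA that held no site. Its nearest Abf1 site spanned 244393 to 244407, 228 bp beyond its last base, with a score of 11.8 and 4 rows. That site was 68 bp upstream of IES2, an INO80 subunit gene that runs in the same direction. The nearest Reb1 site was 7814 bp upstream of RAP1, with a score of 12.8 and 3 rows, and lay 180 bp from the start codon of POP1, a subunit gene of RNase P and RNase MRP. RAP1 was thus close to an Abf1 site only at its end, where the site faced the next gene.

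CBF1 (YJR060W, chromosome X, 548759 to 549814) follows PTK2 after 515 bp of intergenic DNA. Its nearest Reb1 site was 1350 bp beyond its last base, inside MNN14, with a score of 11.9 and 1 row. Its nearest Abf1 site was 3433 bp upstream, with a score of 11.3 and 1 row, and stood 151 bp from the start codon of APS2, a clathrin adaptor subunit gene. Both of these sites scored below the medians of their lists (12.3 for Reb1 and 12.0 for Abf1).

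MCM1 (YMR043W, chromosome XIII, 353871 to 354731) follows its paralog ARG80, a regulator of arginine metabolism, after 734 bp of intergenic DNA, the longest such stretch of the 6 genes. Its nearest Reb1 site was 3877 bp upstream, with a score of 13.7 and 5 rows, and lay 387 bp from the start codon of YET2. Its nearest Abf1 site was 8158 bp upstream, inside the stress-response factor gene MSN2, with a score of 11.3 and 1 row. At 78.5% of all genes an Abf1 site was nearer than that.

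TBF1 (YPL128C, chromosome XVI, 306533 to 308221, reverse strand) is preceded by HHO1, the linker histone gene, after 606 bp of intergenic DNA. Its nearest Reb1 site was 21030 bp upstream, the most distant of the 6 genes, and at 92.9% of all genes a Reb1 site was nearer. That site scored 13.4, was listed 5 times and lay 355 bp from the start codon of HOS3, a histone deacetylase gene. The nearest Abf1 site was 1396 bp beyond the last base of TBF1, with a score of 12.3 and 1 row, and was 161 bp upstream of TAF14, a subunit gene of TFIID and of several remodelers. The intergenic DNA in front of RAP1, CBF1, MCM1 and TBF1 was thus 377 to 734 bp long, against 364 bp at REB1 and 694 bp at ABF1, so the lengths of promoters with and without sites overlapped.

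Several genes for partners and paralogs of these factors also carried sites. In a list of 35 such genes, 10 had a Reb1 site (28.6%, against 19.1% of all genes), 14 had an Abf1 site (40.0%, against 24.9%), 6 had both (17.1%, against 6.08%) and 17 had neither (48.6%, against 62.1%). These shares are descriptions of a list whose members were picked by known function, with earlier results of these data known, and no test was made of them. The genes were not matched for length, and 1 Reb1 site counts for both ARG82 and HMO1. The REB1 paralog NSI1, a silencing factor of ribosomal DNA, had an Abf1 site 87 bp upstream (score 11.7, 1 row) and no Reb1 site, and the MCM1 paralog ARG80 had neither.

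Of the 10 RAP1 partners, 6 had a site of either factor, as did 2274 of all 6002 genes (37.9%). GCR1, the activator of glycolytic genes, had a Reb1 site 485 bp upstream (score 11.4), another inside the gene, and an Abf1 site 229 bp upstream (score 13.9). Its partner GCR2 had a Reb1 site 258 bp upstream (score 12.6). HMO1, a high-mobility-group protein of ribosomal protein promoters, had a Reb1 site 282 bp upstream, and the same site (score 12.2, 5 rows) was 196 bp upstream of the divergent gene ARG82. IFH1, a coactivator of ribosomal protein genes, had a Reb1 site 534 bp upstream (score 13.2, 2 rows). It also had 3 overlapping Abf1 sites inside, with scores of 10.7 to 10.9 and 1 row each. SFP1, a ribosome biogenesis regulator, had sites of both factors upstream, Reb1 at 884 bp and Abf1 at 752 bp, and an Abf1 site inside. RIF2, a telomere length regulator, had an Abf1 site 432 bp upstream (score 10.9, 1 row). FHL1, RIF1, SIR3 and SIR4 had none.

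Of the 7 MCM1 partners, 3 had a site of either factor, and of the 6 CBF1 partners or relatives 2 had one, shares near the 37.9% of all genes. Besides ARG82, with an Abf1 site inside the gene in addition to the shared Reb1 site, the MCM1 partners with a site were the cell-cycle repressors YHP1 and YOX1. YHP1 had a Reb1 site 446 bp upstream. YOX1 had an Abf1 site 852 bp upstream that lay inside TSA1 (score 14.5, 1 row). MET4, the activator that works with Cbf1, had an Abf1 site 287 bp upstream (score 11.2, 5 rows). PHO4, a phosphate-response activator that binds the same core motif as Cbf1, had 5 Abf1 sites inside the gene, with scores of 10.7 to 15.1 and 4 or 5 rows each, and none upstream. PHO4 thus held more Abf1 sites than REB1 or ABF1, all of them in coding DNA.

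Of the 2 TBF1 partners, VID22 had Abf1 sites 126 bp upstream and 78 bp inside (score 13.1 for both), and ENV11 had none. Of the 4 RSC subunit genes, RSC3, whose product binds DNA, had a Reb1 site 403 bp upstream (score 11.8, 1 row), RSC30 had an Abf1 site 141 bp upstream (score 11.7), and RSC1 and RSC2 had none. Among 4 other promoter-binding factors, the meiotic repressor UME6 had a Reb1 site 195 bp and an Abf1 site 380 bp upstream (score 14.2, 5 rows). The repressor SUM1 had Abf1 sites 433 and 618 bp upstream, another Abf1 site inside and a Reb1 site inside. AZF1 had an Abf1 site inside (score 11.0, 1 row), and STB3 had none. SUM1 was the only gene of the 35 with at least 2 upstream Abf1 sites, against 183 of all 6002 genes (3.05%). At least 2 upstream Reb1 sites were found at 0 of the 35, against 103 of 6002 (1.72%). REB1 and ABF1 each had an upstream pair for their own factor, with both sites on the same strand. Those of SUM1 were on different strands, and the nearer one was listed in 1 row.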

How the data were processed

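The authors' deposited values were 2 lists of sites, with a score for each site and no definition of it, and identical rows were counted as 1 site (2808 Reb1 rows gave 942 sites, 3699 Abf1 rows gave 1365). The submitters' processing notes name Bowtie, sacCer3 and R64. How motifs were scanned, peaks called and samples pooled, and with which thresholds, is not stated in those sources. For 12 of the 24 pulldowns the description names a track of the other factor, so groups were taken from titles.

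Starts were read as counted from 0 and are printed from 1, so positions are uncertain by 1 bp. Site centres were set against an R64 table (RefSeq) of coding extents, with strand read from systematic names. No genome sequence was used, so the planned motif searches were not made and no sequence is shown. Distances run from the first base of the start codon. No test was planned or made, because the lists carry no sample and the members and lists were chosen with earlier results of these data known. Intervals are exact binomial (95%) and cover counting error only. By the rule, named genes were the 6 members, genes whose start faced or whose body held a member site, the 3 most alike for REB1 and ABF1, and partner genes with a site. Outside it, and after values were seen, the text also names the members' neighbours, the genes beside their nearest distant sites, partners without a site, TDH2, YAT1, ISC1, KAP123 and IKI3. Site assignment was tested on simulated data with known distances. Tables were made with pandas 2.3.3 and numpy 2.4.6 under Python 3.11.15, intervals with scipy 1.17.1 and plots with matplotlib 3.10.9.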

Additional observations from a re-analysis of the deposited data

How the results depend on the processing

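The 12 counts and distances were recomputed under 92 planned combinations of result and setting, and 74 stayed within 1.5 times the main count or within 1 bp of the main distance. The numbers of genes with a site, 1 for Reb1 and 2 for Abf1, and the count of 0 Reb1 sites at ABF1 were the same under every setting run. No setting run could change that 0, because the nearest Reb1 site was 6996 bp from the ABF1 start codon. Its unchanged values are nevertheless among the 74. Upstream windows of 300, 500 and 1500 bp all left 2 Reb1 sites at REB1. Leaving out sites inside genes reduced the Abf1 sites from 8 to 3 in all, to 1 at REB1 and 2 at ABF1, and the median gap at ABF1 from 300 to 153 bp. The site then left at REB1 lay inside REG2. Settings were changed 1 at a time, so sites inside the member and sites beyond another gene were never left out together. Keeping sites at or above the median score left 4 Abf1 sites in all, 2 at each gene, and the nearest one at ABF1 was then 321 bp away with a gap of 733 bp. Counting every row gave 10 Reb1 rows in all and at REB1, and 26 Abf1 rows, 10 at REB1 and 16 at ABF1. Measured from the nearer edge of a site, the nearest Reb1 site was 122 bp from REB1 with a gap of 129 bp, and the nearest Abf1 site 161 bp from ABF1 with a gap of 285 bp. No paired analysis was possible because the lists carry no replicates, and leaving out a replicate was not possible for the same reason.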
